A study of Mus musculus with 8 samples.

Results

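The 48 genes described here encode the machinery that copies DNA in S phase and its G1/S regulators, chosen by name from a list of symbols and not by any measured value. All 48 were among the 10924 genes of the table, and 43 of them reached a normalized read count of at least 10 in at least 2 libraries and were tested. The other 5, Cdc6, Pole2, Tyms, Dut and Ccne2, were too low. Cell lines derived from mammary tumors of FBV/N mice (strain as spelled in the labels), in which the polyoma middle T oncogene is expressed in the mammary gland from the MMTV promoter (PyMT), were WT for Lats1 or carried a conditional deletion of it (Lats1-CKO). All groups carry the oncogene. Each genotype was separated by flow cytometry into luminal (EpCAM-high and CD49f-high) and basal-like (EpCAM-low and CD49f-high) cells, which were expanded in culture for an unstated time before RNA was taken for MARS-seq, a protocol that tags RNA with barcodes and sequences transcript ends. There were 8 libraries in 4 groups of 2, with no ages, no Cre driver and no number of independent lines or clones given in the labels, so a p-value here reflects only how these libraries vary, which may be technical.

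In G1, the origin recognition complex, Cdc6 and Cdt1 load the Mcm2 to Mcm7 helicase ring onto origins, a step called licensing. At the G1/S step cyclin E with its kinase releases E2F factors from the retinoblastoma protein, and E2F factors then induce many genes of replication. In S phase, Cdc45 and the GINS complex switch the helicase on, the polymerases copy both strands, the sliding clamp Pcna holds them on DNA, and ribonucleotide reductase and thymidine kinase supply the building blocks. The transcripts of these genes are therefore commonly read as a measure of how much of a culture is cycling. In bulk RNA, fewer cells in S phase and less RNA of these genes in each cell cannot be told apart.

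The libraries held 1070358 to 2334446 reads, and values are read counts divided by a size factor per library, so that 1 read was worth 0.638 to 1.35. Lats1, the deleted Hippo pathway kinase, had normalized counts of 30.3 to 62.5 in the 4 WT libraries and 8.04 to 13.4 in the 4 Lats1-CKO libraries. Whether transcript ends lie in the deleted part is not stated, so this count follows the genotype labels without measuring the deletion. The sort labels were less clear in the RNA. Summed over 11 luminal epithelial markers, WT basal-like replicate 1 had 12934, near the 14528 and 17705 of WT luminal, WT basal-like replicate 2 had 4666, and the Lats1-CKO basal-like libraries had 297 and 395. The sum of 7 basal and myoepithelial markers was 3870 and 1995 for WT luminal, 2144 and 1133 for WT basal-like, and was highest in Lats1-CKO luminal replicate 2 (19740) and lowest in Lats1-CKO basal-like replicate 1 (179). Most of the sum in WT was Krt14, at 3830 and 1971 (WT luminal) and 2098 and 1098 (WT basal-like). Krt17, Trp63, Cnn1, Tagln and Oxtr were at 0 in at least 1 library. Gene by gene, 3 of the 5 tested basal markers had a positive log2 fold change in WT basal-like against WT luminal (median 0.15), unlike the sum. Acta2, Myh11 and Mylk of the basal list and Esr1 and Prlr of the luminal list were not among the genes analysed here. Of 8 fibroblast markers, Col1a1, Col1a2, Col3a1, Dcn and Thy1 were at 0 in at least 1 library, and the sum ran from 24.3 to 402 in WT, from 155 to 479 in Lats1-CKO luminal, and stood at 3913 and 513 in Lats1-CKO basal-like. Cxcl12 alone made up 2881 of the 3913, 12.9 of the 513 and 248 of the 479. Of 4 leukocyte markers Csf1r and Lyz2 were at 0 in at least 1 library (sum 80.7 to 453). Kdr, the only endothelial marker analysed, stood at 18.8 in Lats1-CKO basal-like replicate 1 and at most at 1.92 elsewhere. The part of these differences in the values of the replication genes was not tested.

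The summed levels of the replication genes overlapped between every pair of groups. Their summed normalized count was 2708 and 5849 (WT luminal), 9472 and 4916 (WT basal-like), 5287 and 6578 (Lats1-CKO luminal) and 7528 and 4147 (Lats1-CKO basal-like). WT luminal replicate 1 had the least and WT basal-like replicate 1 the most. WT luminal replicate 1 was the lowest of the 8 libraries for 34 of the 43 tested genes (79.1%, against 15.4% of all 9031 genes tested). WT basal-like replicate 1 was the highest for 35 (81.4%, against 13.7% of all genes tested). Of the other highest values, 7 were in Lats1-CKO basal-like replicate 1 and 1 in WT luminal replicate 2, and of the other lowest values, 5 were in Lats1-CKO basal-like replicate 2, 3 in Lats1-CKO luminal replicate 1 and 1 in WT basal-like replicate 2. WT luminal replicate 1 was also the shallowest library, with 2004 reads on these genes of 1070358 in all. Lats1-CKO basal-like replicate 1, with a similar total of 1128766 reads, had 5620 on these genes. The part of depth in these values was not tested.

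**Figure D1:**
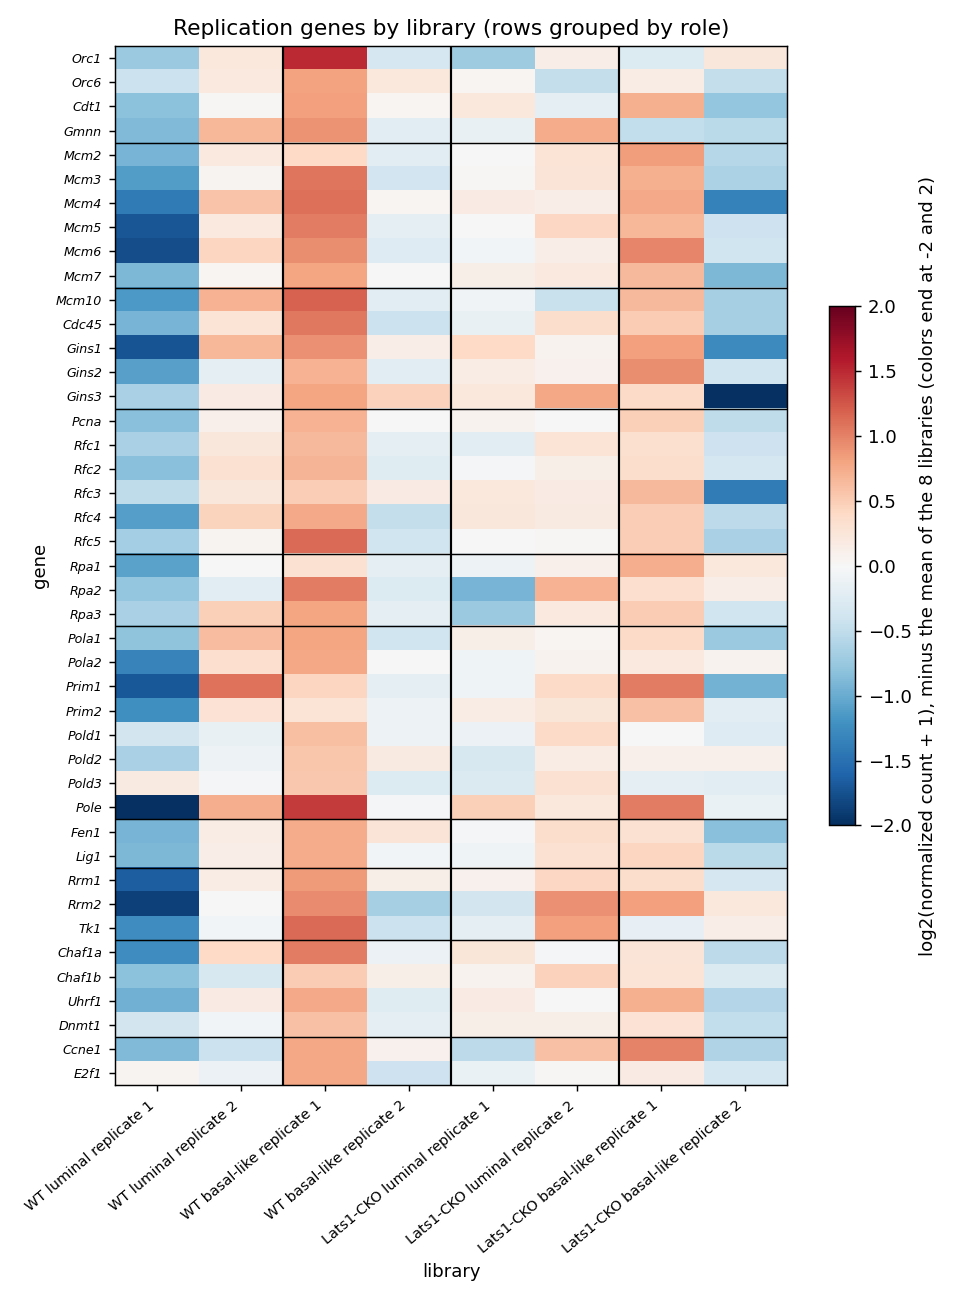
The 43 tested replication genes (rows, grouped by role) in the 8 libraries (columns), as log2(normalized count + 1) minus the mean of the gene over the libraries. The first column, WT luminal replicate 1, is the lowest for 34 genes, and the third, WT basal-like replicate 1, is the highest for 35.

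Within WT luminal, replicate 2 exceeded replicate 1 for 41 of 43 genes, with a median ratio of 2.18. Over all genes tested replicate 2 was the higher for 48.8%. Within WT basal-like the order was the other way, and replicate 1 exceeded replicate 2 for all 43 tested genes, with a median ratio of 1.77. Lats1-CKO basal-like cells also had more in replicate 1, by a median ratio of 1.99, with replicate 2 higher for only 3 of the 43. The Lats1-CKO luminal libraries were the closest to each other, with replicate 2 higher for 29 genes and a median ratio of 1.15. The replicate numbers were given in sample order, and the labels name no batch.

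Among the genes of origin licensing, Cdt1, which brings the helicase to origins (chromosome 8, 122568015 to 122573554, plus strand; coordinates here are GRCm38, the mm10 build of the data), had normalized counts, given here and below for replicates 1 and 2, of 98.7 and 179 (WT luminal), 312 and 180 (WT basal-like), 204 and 153 (Lats1-CKO luminal) and 288 and 102 (Lats1-CKO basal-like). Both WT basal-like libraries were above both WT luminal ones, with a gap only from 179 to 180. Orc6, a subunit of the origin recognition complex, stood at 28.4 and 44.0 (WT luminal), 67.6 and 44.6 (WT basal-like), 39.3 and 27.3 (Lats1-CKO luminal) and 42.9 and 27.2 (Lats1-CKO basal-like). Here too the WT groups were separated only by the small gap between 44.0 and 44.6. Gmnn, geminin, the inhibitor of Cdt1 that keeps origins from being licensed again, stood at 37.8 and 112 (WT luminal), 132 and 59.7 (WT basal-like), 63.3 and 118 (Lats1-CKO luminal) and 49.6 and 47.9 (Lats1-CKO basal-like). Both Lats1-CKO basal-like libraries lay below both libraries of WT basal-like and of Lats1-CKO luminal. Orc1, the largest subunit of the origin recognition complex, ran from 9.46 to 48.2, and Cdc6, the licensing ATPase, was untested at 0 to 6.995.

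The 6 subunits of the MCM helicase varied together from library to library. Mcm2 had 85.1 and 188 (WT luminal), 217 and 141 (WT basal-like), 165 and 198 (Lats1-CKO luminal) and 293 and 110 (Lats1-CKO basal-like). Mcm3 had 131 and 296, 605 and 220, 292 and 341, and 470 and 185 in the same order. Mcm4 had 28.4 and 115, 168 and 79.6, 87.3 and 84.8, and 131 and 29.8. In all of them replicate 1 was the lower library of WT luminal and the higher library of both basal-like groups. Mcm5 had 66.2 and 251 (WT luminal), 445 and 192 (WT basal-like), 220 and 292 (Lats1-CKO luminal) and 346 and 163 (Lats1-CKO basal-like). Mcm6 had 70.3 and 325, 460 and 203, 232 and 264, and 478 and 184. Mcm7, whose end overlaps Cops6 on the other strand so that reads cannot be assigned with certainty, had 168 and 321, 541 and 316, 339 and 359, and 489 and 167. The highest over the lowest library was 3.24 for Mcm7 and 6.80 for Mcm6, and the lowest library was WT luminal replicate 1 for all subunits but Mcm7, for which Lats1-CKO basal-like replicate 2 was just lower (167 against 168).

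Promoter windows are shown for 5 of the MCM genes because these subunits form 1 ring and had like profiles, and E2F factors are the known inducers of such genes. Each window runs from 250 bases before to 50 bases after a RefSeq start (GRCm38.p6 reference, strain C57BL/6J and not that of the mice), 5′ to 3′ on the strand of the gene, and capitals mark E2F words. The words searched, on both strands, were TTTCCCGC, TTTCGCGC, TTTGCCGC and TTTGGCGC, and words on opposite strands can overlap. Mcm3 (chr1:20820263-20820562, minus strand), Mcm5 (chr8:75109259-75109558, plus), Mcm6 (chr1:128359656-128359955, minus), Mcm7 (chr5:138171834-138172133, minus, the second of 2 listed starts) and Mcm2 (chr6:88898731-88899030, minus) read as follows.
Mcm3: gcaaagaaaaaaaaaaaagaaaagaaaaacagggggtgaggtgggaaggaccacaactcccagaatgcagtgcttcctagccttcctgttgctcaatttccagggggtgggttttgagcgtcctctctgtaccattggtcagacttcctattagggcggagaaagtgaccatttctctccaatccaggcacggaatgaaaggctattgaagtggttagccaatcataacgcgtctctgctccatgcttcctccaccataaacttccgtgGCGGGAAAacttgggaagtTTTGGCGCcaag
Mcm5: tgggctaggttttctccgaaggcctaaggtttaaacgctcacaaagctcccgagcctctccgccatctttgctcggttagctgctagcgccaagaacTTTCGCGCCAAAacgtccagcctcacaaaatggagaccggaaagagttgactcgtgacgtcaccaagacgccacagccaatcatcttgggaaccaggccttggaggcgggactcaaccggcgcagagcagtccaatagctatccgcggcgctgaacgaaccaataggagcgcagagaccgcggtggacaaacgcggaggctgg
Mcm6: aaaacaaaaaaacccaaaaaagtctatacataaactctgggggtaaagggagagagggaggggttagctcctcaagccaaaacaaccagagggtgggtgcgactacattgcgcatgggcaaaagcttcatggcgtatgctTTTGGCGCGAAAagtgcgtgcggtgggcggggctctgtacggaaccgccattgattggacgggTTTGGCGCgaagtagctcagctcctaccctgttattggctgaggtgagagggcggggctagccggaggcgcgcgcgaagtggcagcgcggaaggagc
Mcm7: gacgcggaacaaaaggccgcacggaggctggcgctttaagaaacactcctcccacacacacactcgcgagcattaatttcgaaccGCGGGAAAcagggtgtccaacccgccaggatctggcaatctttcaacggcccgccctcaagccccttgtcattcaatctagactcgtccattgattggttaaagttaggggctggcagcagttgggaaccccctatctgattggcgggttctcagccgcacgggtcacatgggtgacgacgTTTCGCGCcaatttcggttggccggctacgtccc
Mcm2: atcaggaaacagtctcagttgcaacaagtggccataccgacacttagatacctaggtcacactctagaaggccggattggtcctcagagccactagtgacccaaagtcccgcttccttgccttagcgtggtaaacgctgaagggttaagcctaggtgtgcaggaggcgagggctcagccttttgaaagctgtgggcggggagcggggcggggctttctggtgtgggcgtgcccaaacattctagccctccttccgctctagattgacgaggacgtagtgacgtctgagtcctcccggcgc
The Mcm3 window held words at 20 and 39, counted from the start site as 1, the Mcm5 window at -153 and -149, the Mcm6 window at -110, -106 and -47, and the Mcm7 window at -165 and 17. In Mcm5 and Mcm6 a pair of words on opposite strands overlap in 1 run of capitals. The Mcm2 window and the other Mcm7 window held none of these letters, which says nothing of other E2F sites.

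Of the 48 genes, 40 had a promoter in the RefSeq table, and Ccne2, Gins1, Gins2, Gmnn, Mcm4, Pole, Prim2 and Rfc2 did not. The 40 genes had 48 windows, as some have several listed starts, and a gene was counted if any of its windows held the motif. An E2F word was found for 16 of the 40 (40%), against 5.12% of 7282 tested genes with a window and 2.6% of all 27025 genes of the table. It was found for 21.4% of 42 other genes of replication and 2.5% of 40 G2/M and mitosis genes. The 16 were Cdc6, Cdt1, Dnmt1, Gins3, Lig1, Mcm3, Mcm5, Mcm6, Mcm7, Orc1, Pola1, Pold1, Pold3, Pole2, Rfc3 and Uhrf1. They included Lig1, whose profile was the most like that of the other replication genes, and Pold3, whose profile was the least like it. The CCAAT box (CCAAT, both strands) was in 60% of the replication genes, 72.5% of the G2/M genes and 43% of tested genes. The CHR word (TTTGAA or TTTAAA, both strands), an element known from G2/M promoters, was in 27.5% of the replication genes, 80% of the G2/M genes and 21.3% of tested genes. These are matches of letters and not measured binding sites.

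**Figure D2:**
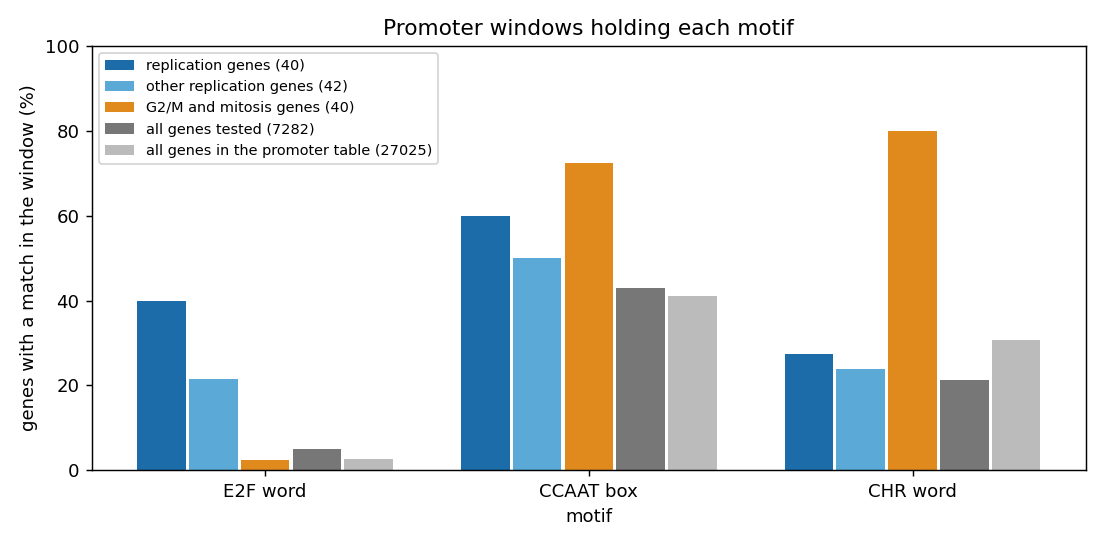
Share of genes (%) with an E2F word, a CCAAT box or a CHR word in any of their promoter windows. Bars are the replication genes, 2 other gene lists, all genes tested and all genes of the promoter table, with the number of genes in the key. E2F words were found in 40% of the replication genes and 5.12% of tested genes, and CHR words in 80% of the G2/M genes.

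Of the genes that switch the helicase on, 3 of 5 had their lowest value in WT luminal replicate 1 and their highest in WT basal-like replicate 1. Gins2, a GINS subunit (its end overlaps Gse1 on the other strand), had 44.6 and 84.2 (WT luminal), 155 and 82.7 (WT basal-like), 107 and 102 (Lats1-CKO luminal) and 182 and 72.5 (Lats1-CKO basal-like). Both Lats1-CKO luminal libraries were above both WT luminal ones, and the basal-like groups overlapped. Gins3, another GINS subunit and near the limit of detection, had 5.41 and 10.2, 16.3 and 12.7, 10.6 and 16.1, and 12.1 and 1.29, the last of them from 1 read. Cdc45, which completes the active helicase, ran from 25.7 in WT luminal replicate 1 to 105 in WT basal-like replicate 1. Mcm10, which joins it at the origin, ran from 10.8 to 58.3 and Gins1 from 5.41 to 38.9 between the same libraries.

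Pcna, the sliding clamp (chromosome 2, 132249162 to 132253314, minus strand), had 196 and 377 (WT luminal), 566 and 348 (WT basal-like), 367 and 353 (Lats1-CKO luminal) and 488 and 245 (Lats1-CKO basal-like). The WT groups overlapped, as did the basal-like groups, and the Lats1-CKO luminal libraries lay between the other libraries. The 5 clamp loader subunits Rfc1 to Rfc5 had ratios of the highest to the lowest library from 2.49 (Rfc1) to 4.17 (Rfc3). Rfc3 was the exception in its lowest library, Lats1-CKO basal-like replicate 2, at 46.6 against 86.5 in WT luminal replicate 1.

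Of the single-strand binding proteins that coat unwound DNA, Rpa1 differed in its order of groups. It stood at 107 and 226 (WT luminal), 276 and 197 (WT basal-like), 209 and 240 (Lats1-CKO luminal) and 371 and 259 (Lats1-CKO basal-like). It was the only tested replication gene with both Lats1-CKO basal-like libraries above both Lats1-CKO luminal ones, a pattern of 17.8% of all genes tested. For Rpa1 too, WT luminal replicate 1 was the lowest. Rpa3, the smallest subunit, had 21.6 and 48.5, 59.8 and 30.2, 20.2 and 39.4, and 49.6 and 25.9, so that every pair of groups overlapped. Rpa2 ran from 47.0 in Lats1-CKO luminal replicate 1 to 185 in WT basal-like replicate 1.

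The polymerase genes held both the widest and the narrowest range. Pole, the catalytic subunit of the leading-strand polymerase epsilon (chromosome 5, 110286306 to 110337474, plus strand), had 1.35 and 47.8 (WT luminal), 76.9 and 27.8 (WT basal-like), 40.3 and 33.3 (Lats1-CKO luminal) and 58.9 and 25.9 (Lats1-CKO basal-like). The value of 1.35 was 1 read, against 75 reads in the other WT luminal library. Pold3, an accessory subunit of polymerase delta, had 41.9 and 35.7, 53.6 and 30.2, 29.7 and 45.4, and 32.1 and 31.1, a ratio of 1.80 between the highest and lowest library. Unlike most of the others it was higher in WT luminal replicate 1 than in replicate 2. Pold2, another delta subunit (its end overlaps Aebp1 on the other strand), had 134 and 196 (WT luminal), 311 and 239 (WT basal-like), 170 and 234 (Lats1-CKO luminal) and 226 and 227 (Lats1-CKO basal-like). Both WT basal-like libraries were above all 6 other libraries, the nearest of them at 234. The primase subunit Prim1 had the widest range of the genes with over 3 reads in every library, from 8.11 in WT luminal replicate 1 to 61.9 in WT luminal replicate 2, a ratio of 7.63. Over the 41 replication genes with over 3 reads in every library the median ratio was 3.56, against 2.48 over 7643 such genes. Pole2 was untested at 1.35 to 16.3.

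Fen1, the nuclease that trims Okazaki fragments, had 86.5 and 185 (WT luminal), 281 and 199 (WT basal-like), 161 and 212 (Lats1-CKO luminal) and 206 and 93.2 (Lats1-CKO basal-like). Lig1, the ligase that seals them, ran from 60.8 in WT luminal replicate 1 to 190 in WT basal-like replicate 1. The WT groups did not overlap for Fen1, whose end overlaps an antisense gene (Gm10143).

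In the supply of nucleotides, Tk1, the cytosolic thymidine kinase (chromosome 11, 117815526 to 117826092, minus strand), had 207 and 475 (WT luminal), 1077 and 367 (WT basal-like), 437 and 870 (Lats1-CKO luminal) and 438 and 538 (Lats1-CKO basal-like). Rrm2, the small subunit of ribonucleotide reductase, had 28.4 and 106, 206 and 66.8, 81.6 and 200, and 189 and 123. For both genes WT luminal replicate 1 was far the lowest library, and both were higher in Lats1-CKO luminal replicate 2 than in replicate 1 by more than most replication genes. Rrm1, the large subunit, ran from 85.1 in WT luminal replicate 1 to 483 in WT basal-like replicate 1. Tyms, thymidylate synthase, and Dut, which removes dUTP, were untested at 1.34 to 7.77 and 1.28 to 17.4.

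Of the genes that restore chromatin behind the fork, Dnmt1, the methyltransferase that copies DNA methylation (chromosome 9, 20907209 to 20959888, minus strand), had 132 and 165 (WT luminal), 256 and 149 (WT basal-like), 186 and 185 (Lats1-CKO luminal) and 209 and 122 (Lats1-CKO basal-like). Chaf1b, a subunit of the histone chaperone CAF-1 (chromosome 16, 93883901 to 93906115, plus strand), had 89.2 and 127, 225 and 173, 167 and 219, and 193 and 129, and is shown in full because its p-value was the lowest, a choice made after its values were seen. Both WT luminal libraries of Chaf1b were below all 6 other libraries, the nearest of them at 129. Its partner Chaf1a ran from 44.6 to 218 and Uhrf1, which guides Dnmt1 to new DNA, from 48.7 to 163, each from WT luminal replicate 1 to WT basal-like replicate 1.

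Of the 2 tested G1/S regulators, E2f1 followed the other replication genes less closely (Pearson's r with their mean 0.573) than Ccne1 (0.821). E2f1, itself a target of E2F factors, had 98.7 and 86.8 (WT luminal), 163 and 70.8 (WT basal-like), 86.4 and 95.9 (Lats1-CKO luminal) and 106 and 73.8 (Lats1-CKO basal-like), with WT basal-like replicate 1 standing above the rest. Ccne1, cyclin E1, ran from 24.3 in WT luminal replicate 1 to 92.4 in Lats1-CKO basal-like replicate 1. Ccne2 was untested at 0.96 to 6.22.

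WT basal-like cells were set against WT luminal cells to ask whether the sorted populations differ in replication genes when Lats1 is intact. The groups follow the sort labels, and Epcam RNA in WT basal-like replicate 1 (562) lay between the WT luminal values (708 and 523). None of the 43 tested replication genes was called, but all 43 had a positive log2 fold change, with a median of 0.72 against 0.010 over all genes, and the values ran from 0.058 ± 0.41 (SE) for Pold3 to 2.15 ± 1.28 for Pole (on the log2(value + 1) scale, which mostly understates changes of low genes). For Pole, at 1 read in WT luminal replicate 1, the count models gave smaller values, with 0.99 by edgeR, 1.06 by DESeq2 and 0.60 by DESeq2 with the settings of the study. By limma (adjusted p under 0.05) 0 of the 43 passed, as did 0 of all 9031 genes (0%). EdgeR and DESeq2 called 0 of the 43, and DESeq2 with default settings called only 4 of all 9031 genes. At an unadjusted p under 0.05 there were 2 replication genes, Chaf1b (0.88 ± 0.35 SE, limma adjusted p = 1) and Pold2 (0.75 ± 0.32, limma adjusted p = 1), against 1.47% of all genes. Both libraries of WT basal-like lay above both of WT luminal for 8 of 43 genes (11.9% of all genes tested did so), namely Orc6, Cdt1, Gins3, Pold1, Pold2, Fen1, Chaf1b and Ccne1, and below for 0 (12.7% of all genes). Without WT luminal replicate 1 the median was 0.17 with 31 of 43 positive, and without WT basal-like replicate 1 it was 0.31 with 34 positive. It was 1.25 when WT luminal replicate 2 was left out and 1.14 when WT basal-like replicate 2 was. Pole stood at -0.043 without WT luminal replicate 1.

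Lats1-CKO luminal against WT luminal cells asked what goes with the loss of Lats1 in cells sorted as luminal. The median log2 fold change of the replication genes was 0.49, with 37 of 43 positive, against 0.0094 over all genes. Pole had the highest value (1.81 ± 1.28 SE) and Rpa3 the lowest (-0.20 ± 0.60). By edgeR Pole stood at 0.52, by DESeq2 at 0.55 and by DESeq2 with the study's settings at 0.30. By limma 0 of the 43 and 0 of 9031 genes (0%) passed. EdgeR and DESeq2 called 0 of the 43, against 25 of 9031 genes by DESeq2 with default settings. Chaf1b alone had an unadjusted p under 0.05 (0.84 ± 0.35 SE, limma adjusted p = 0.9998), against 2.78% of all genes. Mcm7, Gins2, Gins3, Pold1, Chaf1b and Dnmt1, 6 of 43, had both Lats1-CKO luminal libraries above both WT luminal ones (15.9% of all genes did so), and 0 had both below (15.2% of all genes). The direction rested on WT luminal replicate 1. Without that library the median was -0.048 and 16 of 43 genes were positive, and Pole stood at -0.38, while without WT luminal replicate 2 the median was 1.05. This comparison and the one before share the WT luminal libraries.

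In the basal-like cells, the comparison of Lats1-CKO with WT had a median of -0.32, with 38 of 43 genes negative, against -0.024 over all genes. Gins3 had the most negative value, -1.49 ± 0.88 (SE; limma adjusted p = 0.693), and Rpa1 the most positive, 0.41 ± 0.41. Limma called 0 of the 43 replication genes and 50 of 9031 genes (0.554%), and 0 of the 43 had an unadjusted p under 0.05 against 8.86% of all genes. EdgeR and DESeq2 also called 0 of the 43, against 17 (edgeR) and 190 (DESeq2 with default settings) of 9031 genes. Orc6, Gmnn, Gins3 and Pold2, 4 of 43, had both Lats1-CKO libraries below both WT ones (18.2% of all genes did so), and 0 had both above (17.1%). The direction turned when the higher WT library or the lower Lats1-CKO library was left out. The median was 0.22 without WT basal-like replicate 1 and 0.17 without Lats1-CKO basal-like replicate 2, and -0.80 and -0.82 without the other library of either group.

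Within Lats1-CKO cells, basal-like against luminal, the median was -0.092 with 30 of 43 genes negative (0.015 over all genes). The values ran from -1.36 ± 0.88 (SE) for Gins3 to 0.47 ± 0.41 for Rpa1. By limma 0 of the 43 passed against 44 of 9031 genes (0.487%), and 0 had an unadjusted p under 0.05 against 7.32% of all genes. EdgeR and DESeq2 called 0 of the 43, against 129 of 9031 genes by DESeq2 with default settings. Gmnn had both basal-like libraries below both luminal ones (18% of all genes did so) and Rpa1 had both above (17.8%). Leaving out Lats1-CKO basal-like replicate 2 gave a median of 0.40, leaving out replicate 1 of that group gave -0.59, and leaving out Lats1-CKO luminal replicate 2 gave 0.032.

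The interaction asked whether the population difference differed between the genotypes. Its log2 value was negative for all 43 replication genes, with a median of -0.76 against -0.024 over all genes, from -2.23 ± 1.24 (SE) for Gins3 to -0.046 ± 0.85 for Rpa3. Limma called 0 of the 43 and 0 of 9031 genes (0%). EdgeR and DESeq2 called 0 of the 43, against 25 of 9031 genes by DESeq2 with default settings. Chaf1b alone had an unadjusted p under 0.05 (-1.16 ± 0.49 SE, limma adjusted p = 0.9998), against 2.33% of all genes. Left without WT luminal replicate 1 the median was -0.29 with 13 of 43 genes positive. It was -1.37 with 0 positive when replicate 2 was left out. For WT basal-like the values were -0.28 (replicate 1 out, 9 positive) and -1.27 (replicate 2 out, 0 positive). For Lats1-CKO basal-like they were -0.25 (replicate 2 out, 6 positive) and -1.28 (replicate 1 out, 0 positive). The interaction holds the same WT libraries as the comparison of the WT populations, so the results of both are not independent.

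Averaged over both populations, Lats1-CKO against WT had a median of 0.021, with 27 of 43 genes positive and 16 negative, against -0.0097 over all genes. Orc6 was the most negative (-0.39 ± 0.30 SE) and Rrm2 the most positive (0.79 ± 0.55). Limma called 0 of the 43 against 26 of 9031 genes (0.288%), and 0 had an unadjusted p under 0.05 against 9.36% of all genes. EdgeR and DESeq2 called 0 of the 43, against 271 of 9031 genes by DESeq2 with default settings. The median was -0.21 without WT luminal replicate 1 and 0.32 without WT luminal replicate 2. It was also negative without WT basal-like replicate 2 (-0.18) and without Lats1-CKO basal-like replicate 1 (-0.19).

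**Figure D3:**
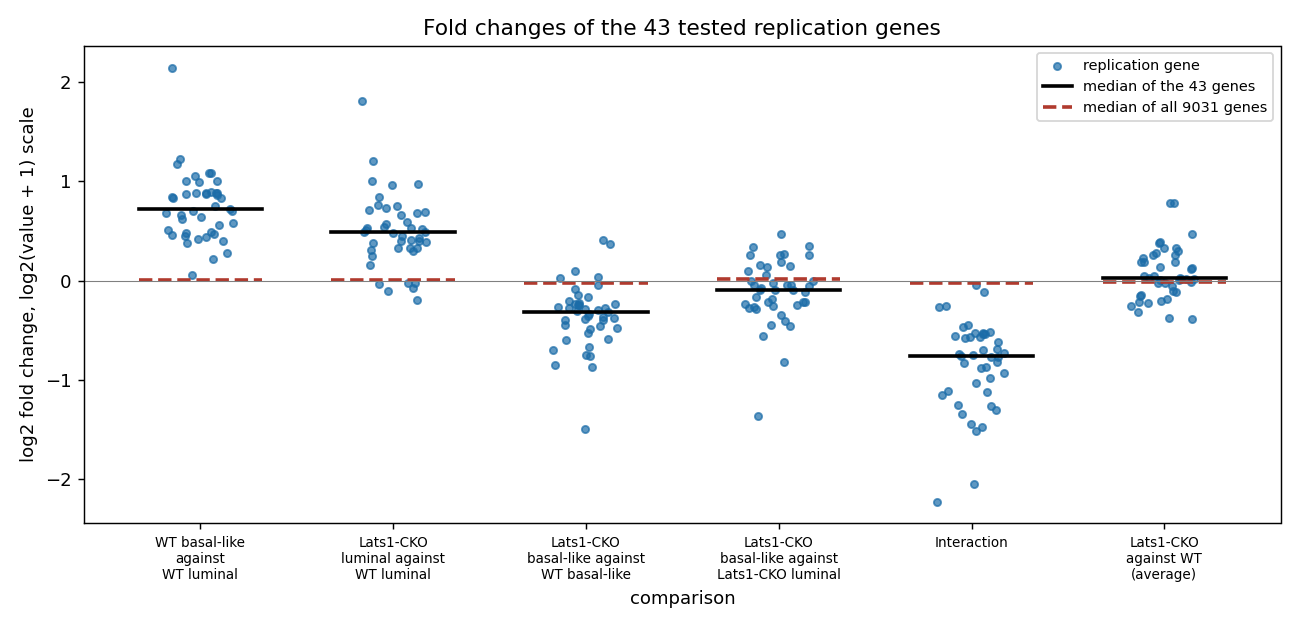
Log2 fold change of each of the 43 tested replication genes (points, spread sideways for sight only) in the 6 comparisons, with the median of the 43 (solid line) and of all 9031 genes (dashed line). The medians of the 43 run from -0.76 in the interaction to 0.72 in WT basal-like against WT luminal, and no point passed the test.

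**Figure D4:**
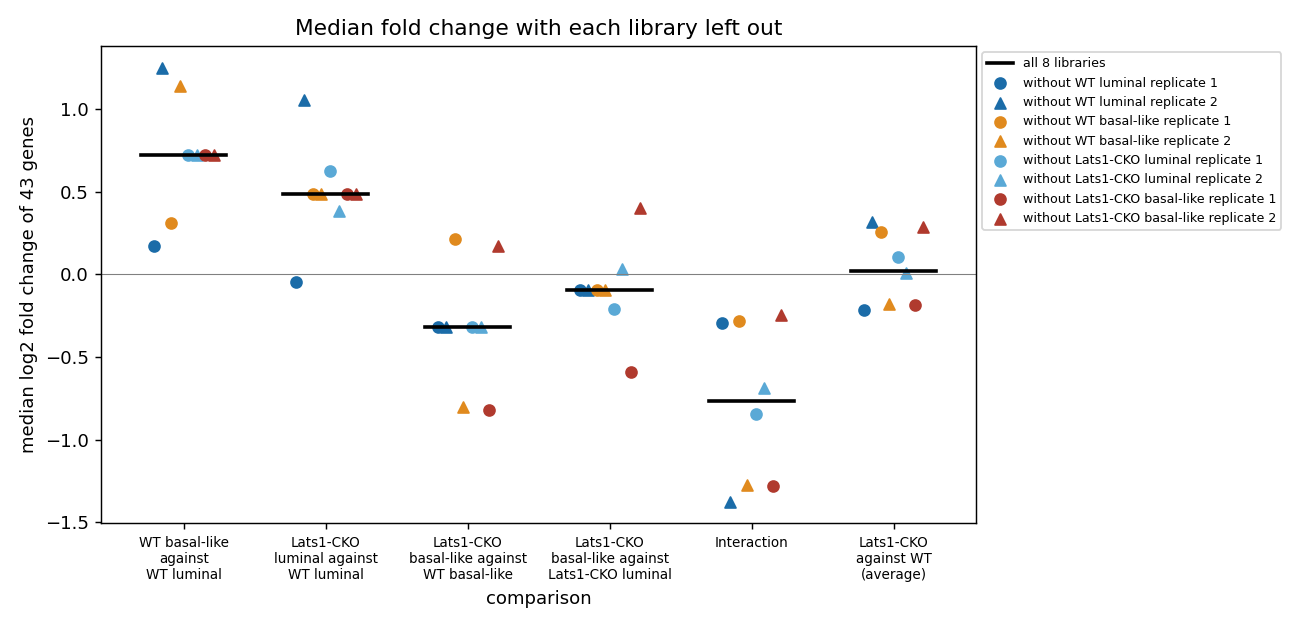
Median log2 fold change of the 43 replication genes in each comparison with all 8 libraries (line) and with each library left out (circles for replicate 1, triangles for replicate 2). The medians for Lats1-CKO luminal against WT luminal run from -0.048 without WT luminal replicate 1 to 1.05 without WT luminal replicate 2.

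The replication genes varied together across the 8 libraries. As a description over 8 libraries, which share their depth and groups, Pearson's r of each gene's log2 value with the mean of the other replication genes had a median of 0.90, and 20 of 43 (46.5%) had r above 0.9. Of all genes tested, with the 43 among them, 1.53% had r above 0.9 with the mean of all 43, a slightly different measure. Among the replication genes Lig1 had the highest r (0.993), and Pold3 (0.304) and E2f1 (0.573) the lowest. Outside the lists, the 5 genes most like the mean of the set were Arhgap11a (0.983), H1f5 (0.982), Spdl1 (0.98), Tmem97 (0.975) and Snrpf (0.97). H1f5, a linker histone gene, had 5.41 and 15.9 (WT luminal), 36.5 and 13.5 (WT basal-like), 14.4 and 16.1 (Lats1-CKO luminal) and 20.1 and 7.77 (Lats1-CKO basal-like).

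Other genes of the cell cycle were taken from fixed lists. The 48 G2/M and mitosis genes summed to 1847 and 6404 (WT luminal), 9092 and 4633 (WT basal-like), 5361 and 6312 (Lats1-CKO luminal) and 6094 and 3776 (Lats1-CKO basal-like), the same extreme libraries as for replication. Their median r with the mean of the replication genes was 0.907, and Ube2c, the ubiquitin-conjugating enzyme of mitotic exit, stood at 241 and 859 (WT luminal), 1206 and 535 (WT basal-like), 633 and 716 (Lats1-CKO luminal) and 592 and 395 (Lats1-CKO basal-like). Mki67, the proliferation antigen, had 14.9 and 76.5, 75.4 and 56.5, 44.1 and 75.7, and 61.6 and 31.1, with WT luminal replicate 1 again the lowest. Of 39 tested replication genes outside the 48, limma called 0 in any comparison, and their medians were 0.46 in WT basal-like against WT luminal and 0.28, -0.37 and -0.25 in the next 3 comparisons. Shmt2, a mitochondrial folate enzyme of that list, had 423 and 762, 591 and 364, 529 and 341, and 350 and 269. The 25 tested E2F and RB regulators had medians of 0.34, 0.14, -0.33 and -0.22, with 0 called, and the cyclin gene Ccnd1 had 1426 and 2733, 2542 and 1526, 987 and 2682, and 964 and 4265.

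Of 15 tested CDK inhibitors and arrest markers 0 were called, with medians of -0.24, 0.064, 0.29 and -0.062 in the same order. Cdkn1a, the CDK inhibitor p21, had 157 and 299 (WT luminal), 263 and 126 (WT basal-like), 241 and 620 (Lats1-CKO luminal) and 237 and 1129 (Lats1-CKO basal-like). Its highest value was in Lats1-CKO basal-like replicate 2, the library of that group with fewer replication transcripts, but in WT luminal replicate 1, the lowest library for replication, it was the second lowest. The part of Cdkn1a in the replication values was not tested. The 25 interferon-stimulated genes, listed because earlier results of these data had them high in 1 library, summed to 4208 and 1118 (WT luminal), 419 and 1315 (WT basal-like), 1803 and 431 (Lats1-CKO luminal) and 1089 and 739 (Lats1-CKO basal-like). Ifi27 of that list had 511 and 265 (WT luminal), 53.6 and 564 (WT basal-like), 375 and 166 (Lats1-CKO luminal) and 364 and 388 (Lats1-CKO basal-like), with its highest value not in WT luminal replicate 1 but in WT basal-like replicate 2. By the sums, the library with the most interferon-stimulated transcripts was the one with the fewest replication transcripts, and their part in each other was not tested. As the list was taken from these same data, its peak in 1 library is not a new result. In Lats1-CKO basal-like cells both sums were higher in replicate 1.

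**Figure D5:**
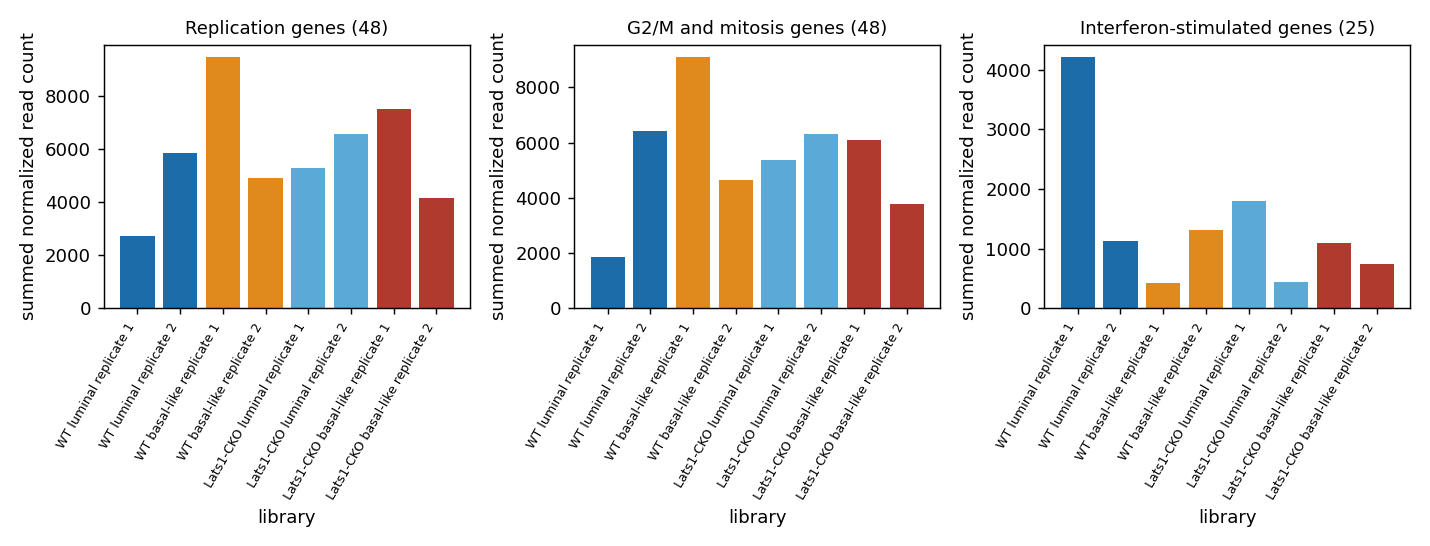
Summed normalized read count per library of the 48 replication genes, 48 G2/M and mitosis genes and 25 interferon-stimulated genes, with bars colored by group. The interferon-stimulated genes were listed because earlier results of these data had them high in 1 library. WT luminal replicate 1 has the lowest sums of replication (2708) and G2/M genes (1847) and the highest sum of interferon-stimulated genes (4208).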

How the data were processed

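Reads had been trimmed by the authors (cutadapt), aligned to mm10 with STAR 2.4.2a and counted with HTSeq (union mode) over Gencode genes extended by 1000 bases at the 5′ and 100 bases at the 3′ edge. Strand setting and use of molecular identifiers are not given in the sources used here. The deposited value of a gene is a signal, its reads in a library over the DESeq2 size factor that the authors computed. They were whole multiples of 1 read's worth for 100% of values (tolerance 1e-06). The deposited fold changes and p-values of the authors were not used. The test was limma-trend (limma 3.58.1, R 4.3.3) on log2(value + 1) for the 9031 of 10924 genes that reached 10 in 2 or more libraries. All 8 libraries entered 1 model (4 residual degrees of freedom), and calls were made at 0.05 after Benjamini-Hochberg adjustment across the genes tested. Alternatives were edgeR 4.0.16 and DESeq2 1.42.0 on the recovered reads, no filter, a pseudocount of 5, TMM scaling, the study's fold threshold of 1.5 with an unadjusted p, only the groups compared, and each library left out. The script was tested on simulated data with changes far larger than the medians reported here, which says nothing of its power for changes of that size. The genes to name were Mcm2 to Mcm7, Pcna, the gene with the highest mean of each role and list, the extreme fold changes of each comparison, Lats1, Mki67, Cdkn1a and the 5 genes most like the set. Lats1 is given as a range, marker lists as sums, and the most alike genes other than H1f5 by r alone. The genes and lists were chosen with earlier results of these data known. Gene ends overlapping another gene in the GENCODE annotation, so that reads there may be left uncounted or not assigned with certainty, were found also for Rfc4 (Eif4a2), Rfc5 (Wsb2), Pold1 (Spib), Chaf1a (Ubxn6), Ccne2 (Ints8) and E2f1 (Necab3).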

Additional observations from a re-analysis of the deposited data

How the results depend on the processing

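No replication gene was called in any of the 6 comparisons without the filter, with a pseudocount of 5, with TMM scaling, by edgeR, by DESeq2 or with any library left out, nor with only the groups compared, which was run for the 4 comparisons of 2 groups. At a fold over 1.5 and an unadjusted p under 0.05 there were 2 replication genes between the WT populations, 1 between the luminal genotypes and 1 in the interaction, of 133, 251 and 210 genes in all. The other comparisons (basal-like genotypes, Lats1-CKO populations, genotype average) gave 798, 660 and 785 genes. Of all genes, in the order of the report, DESeq2 called 4, 25, 190, 129, 25 and 271 with default settings and 1, 22, 179, 130, 22 and 225 with those of the study. EdgeR called 17 between the basal-like genotypes. With only the groups compared limma called 0 there and 0 within Lats1-CKO cells. With each library left out limma called 0 to 2 genes between the luminal genotypes, 0 to 78 between the basal-like genotypes, 9 to 93 within Lats1-CKO cells, 0 to 2 in the interaction and 0 to 70 in the genotype average. Single genes changed sign. With each library left out Pole ran from -0.043 to 4.33 between the WT populations and from -0.38 to 4.00 between the luminal genotypes, Pold3 from -0.35 to 0.46 between the WT populations, and Rpa3 from -0.76 to 0.37 between the luminal genotypes and from -0.61 to 0.52 in the interaction, where DESeq2 with default settings gave 0.0011. The cause was not tested. The count of replication genes lowest in a library was 1 for WT luminal replicate 2 and 1 for Lats1-CKO basal-like replicate 1 without the filter, and 2 for WT basal-like replicate 2 with TMM scaling. With TMM scaling WT basal-like replicate 1 was the highest for 32 genes in place of 35, and Lats1-CKO luminal replicate 2 for 3 in place of 0. DESeq2 with the settings of the study gave Gins3 -0.63 between the basal-like genotypes, -0.55 within Lats1-CKO cells and -1.06 in the interaction.

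The labels pair no libraries. No paired analysis was possible because the labels give groups no shared replicate number and the numbers used here only follow the sample order. With 2 libraries a group and 2004 to 12187 reads on the 48 genes, a standard error of 0.59 (the median in a comparison of 2 groups) means that differences of the size of the medians were not detectable for most genes. A lone library left in a group is assumed to vary like the other groups. Depth limits Gins3 and Pole most, each with 1 read in a library.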
